A study of Mus musculus with 4 samples.

Results

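The LADs (lamina-associated domains) described here were called in *Tm7sf2* KO hepatocytes and shared no base with any LAD called in WT hepatocytes. They are called separate KO LADs below. There were 3750 of them on chromosomes 1 to 9 and 11 to 18, out of 13572 KO LADs on those 17 chromosomes and 16076 KO LADs in all. The rule left out chromosomes 10, 19, X and Y, which held 537 further KO LADs of the same kind. Membership was selected on the measured LAD borders of both genotypes, so the absence of these regions from the WT list is the rule itself and not a result.

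DamID was performed on primary hepatocytes of WT mice and of Tm7sf2/NET47 KO mice, all aged 12 to 16 weeks. Lentivirus carrying LaminB1-Dam, a fusion of the methylase to LaminB1, or Dam alone was left on the cells for 24 h. Either genotype gave 1 library with the fusion and 1 with Dam alone, 4 in all. The DNA of 4 mice was pooled for each, and only cells that took up the virus carry the mark. The labels name no restriction of the KO to a tissue, and the mark was laid down in plated cells and not in the intact liver. No animal or library replicates stand behind either LAD list, so no difference between genotypes has a p-value or a spread between animals, and LADs are not replicates. The lists hold positions only, without signal or read number, so the depth behind any one region is unknown. The study had fewer usable reads for the KO than for WT, and the part of depth in the number of separate KO LADs was not tested. The files hold no expression values, so the identity of the cells was not checked against hepatocyte markers.

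Chromatin at the nuclear lamina, the protein meshwork under the nuclear envelope (NE), is mostly poor in genes, AT-rich and weakly transcribed. Lamins, the lamin B receptor and a set of tissue-specific NE transmembrane proteins hold chromatin there. Tm7sf2, also called NET47, is an NE transmembrane protein that lies mainly in the endoplasmic reticulum of most cells tested. It is also a sterol reductase of cholesterol synthesis. The study could not tell whether it tethers chromatin directly or acts through its enzyme activity. A gene that lies between LADs is usually in the nuclear interior, where most widely expressed genes with CpG-rich promoters are found.

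The borders of the separate KO LADs fall at GATC, the DNA motif that Dam methylase marks. The method sets this and it is no trait of these regions. The study took the ratio for each fragment cut at GATC, so LAD borders of any kind are placed there. A GATC sat at 7497 of their 7500 borders (99.96%) in the mm9 genome (NCBIM37), against 99.4% of the borders of the KO LADs that overlap a WT LAD. The 40 bases around both borders of the 3 longest separate KO LADs are shown as examples of this, with every GATC in capitals.
First border at *Mllt3*, chr4:87452608-87452647, strand +: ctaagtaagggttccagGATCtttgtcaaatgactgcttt
Last border at *Mllt3*, chr4:87628414-87628453, strand +: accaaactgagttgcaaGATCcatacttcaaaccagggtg
First border at *Msx2*, chr13:53513534-53513573, strand +: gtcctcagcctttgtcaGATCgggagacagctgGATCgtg
Last border at *Msx2*, chr13:53664906-53664945, strand +: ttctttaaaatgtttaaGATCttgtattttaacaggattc
First border at *3110057O12Rik*, chr3:40654067-40654106, strand +: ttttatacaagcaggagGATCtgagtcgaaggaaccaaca
Last border at *3110057O12Rik*, chr3:40796015-40796054, strand +: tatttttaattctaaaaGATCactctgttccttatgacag
In all 6 windows a GATC lies at the same offset from the border, and the first border at *Msx2* has a second GATC within the window. A separate KO LAD held a median of 46 GATC sites, with 13 in the one with fewest and 389 in the one with most. GATC sites were about as dense in separate KO LADs (2.47 per kb) as in KO LADs that overlap a WT LAD (2.58 per kb) and in DNA that lies in no LAD (2.37 per kb).

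Separate KO LADs were numerous and short. They covered 86.3 Mb, which is 3.79% of the 17 chromosomes and 6.79% of the bases in KO LADs, although they made up 27.6% of the KO LADs by number (95% Wilson interval 26.9 to 28.4). Wilson intervals and the Poisson intervals below cover counting error only. The median length was 18.3 kb, and the middle 50% of the separate KO LADs lay between 13.3 and 27.2 kb. The shortest was 10002 bases, and 34.8% of the separate KO LADs were below 15 kb. Only 201 reached 50 kb and 19 reached 100 kb. KO LADs that overlap a WT LAD had a median of 59.98 kb. The reverse kind, WT LADs that share no base with a KO LAD, numbered 825 (12.3% of the WT LADs of these chromosomes), covered 16.5 Mb and had a median of 16.2 kb. The plot of lengths and distances shows that counts were highest near the minimum length.

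**Figure D1:**
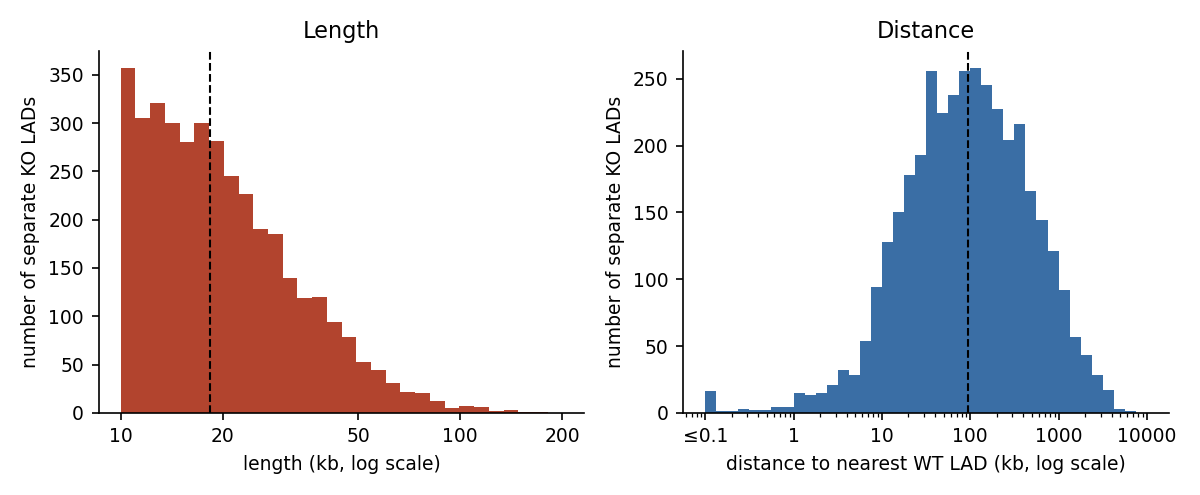
Histograms of the 3750 separate KO LADs by length (left, kb, log scale) and by distance to the nearest WT LAD (right, kb, log scale, with distances up to 0.1 kb in the first bin). Dashed lines mark the medians of 18.3 kb and 94.7 kb; most regions are short and far from a WT border compared with their own length.

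The distances to WT LADs describe how firmly the rule separates the members. The median distance to the nearest WT LAD was 94.7 kb, and 1822 separate KO LADs (48.6%) lay more than 100 kb away. At the edge of the rule, 15 separate KO LADs met a WT LAD border with 0 bases between, and 33 lay under 1 kb from one. The next closest was on chromosome 2, 67 bases from a WT LAD. On the other side of the rule, 43 KO LADs shared under 1 kb with WT LADs, the fewest being 9, 13 and 36 bases on chromosomes 3, 11 and 4.

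The separate KO LADs often lay near each other. The nearest other separate KO LAD was a median of 55.7 kb away, and 2425 of them (64.7%) had another within 100 kb. Counting any KO LAD as a neighbor, the median was 29.1 kb and the share within 100 kb was 82.3%. Neighbors no more than 100 kb apart with no WT LAD between them were joined into runs. This gave 2300 runs, of which 1472 held a single separate KO LAD, 497 held 2, 331 held 3 or more and 66 held 5 or more. Separate KO LADs took up the largest share of the gaps of middle size between WT LADs. They covered 9.69% of the WT gaps of 50 to 100 kb, 16.5% of those of 100 to 200 kb, 16.1% of those of 200 to 500 kb, 12.6% of those of 500 to 1000 kb and 6.003% of the longer ones. Most WT gaps of at least 500 kb held at least 1, with 176 of 188 gaps of 500 to 1000 kb and 208 of 216 longer gaps. The most in a single WT gap was 24, in a gap of 7.02 Mb.

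The run with the most members lay on chromosome 6 from 33775008 to 34383799, where 11 separate KO LADs covered 33.2% of 608.8 kb. It spans part of *Exoc4*, which encodes a subunit of the exocyst that tethers secretory vesicles, then *Lrguk*, the nucleotide sugar transporter *Slc35b4* and the aldo-keto reductases *Akr1b10* and *Akr1b7*. The next lay on chromosome 9 from 96077629 to 96737203, with 10 separate KO LADs over 38.0% of 659.6 kb. Among its genes are the cell cycle transcription factor subunit *Tfdp2*, the sodium pump subunit *Atp1b3*, the Ras GTPase-activating protein *Rasa2* and the zinc finger gene *Zbtb38*. On chromosomes 2, 9 and 17, 3 runs held 9 each, and the one with the most covered bases lay on chromosome 2 from 145546422 to 146109371. It had 9 over 55.9% of 563.0 kb, and takes in the Rab5 regulator *Rin2*, the N-terminal acetyltransferase subunit *Naa20* and part of the RalGAP subunit gene *Ralgapa2*. Within it, *4930529M08Rik* was overlapped by 5 separate KO LADs over 56.6% of its span.

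Every chromosome examined held separate KO LADs, from 1.26 per Mb on chromosome 16 to 1.98 per Mb on chromosome 13. By bases, they took up from 2.68% of chromosome 16 to 5.07% of chromosome 13. As a share of the DNA outside WT LADs, the lowest value was 5.14% on chromosome 11 and the highest was 13.1% on chromosome 3. That share was lower on chromosomes with more genes per Mb (Pearson r = -0.46, Spearman rho = -0.39). It was higher on chromosomes with more of their DNA in WT LADs (Pearson r = 0.64, Spearman rho = 0.41), which also sets its denominator. Both are descriptions over 17 chromosomes of 1 library pair per genotype. Bases in separate KO LADs exceeded bases in separate WT LADs on all 17 chromosomes, with a ratio from 2.76 on chromosome 16 to 17.3 on chromosome 2.

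The DNA of the separate KO LADs was rich in genes and CpG for LADs. The rule sets part of this, since it admits only DNA outside WT LADs, so DNA in no LAD is the closer comparison. They held 1104 protein-coding transcription starts, or 12.8 per Mb, which is 5.62% of all protein-coding starts (95% Poisson interval 12.04 to 13.56). KO LADs that overlap a WT LAD held 4.40 per Mb (4.28 to 4.52), and DNA in LADs of both genotypes held 3.55 per Mb (3.44 to 3.66). DNA in no LAD held 15.04 per Mb (14.8 to 15.3), above the separate KO LADs. The KO-only stretches of at least 10 kb in KO LADs that overlap a WT LAD held 15.99 per Mb (15.1 to 16.9). Separate WT LADs, which are the mirror image of the rule and of similar length, held 57 starts, or 3.45 per Mb (2.61 to 4.47).

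Base composition is given without intervals, since neighboring bases are not independent, and its order was not that of the starts. The median GC content was 43.7% in separate KO LADs (middle 50%, 41.7 to 45.9), 40.6% in KO LADs that overlap a WT LAD and 42.6% in separate WT LADs. CpG dinucleotides numbered 10.6 per kb in separate KO LADs, 6.61 per kb in KO LADs that overlap a WT LAD, 8.12 per kb in separate WT LADs and 11.4 per kb in DNA in no LAD. The KO-only stretches of KO LADs that overlap a WT LAD had more starts than separate KO LADs but a lower median GC content (42.6%) and fewer CpG (10.2 per kb), and separate WT LADs had fewer starts than KO LADs that overlap a WT LAD but more GC and CpG. Protein-coding genes covered 50.6% of the bases of separate KO LADs and exons 3.33%, against 27.1% and 1.03% in KO LADs that overlap a WT LAD and 53.6% and 4.56% in DNA in no LAD. Transcription starts of lincRNAs, long non-coding RNAs between genes, were at 0.683 per Mb (0.520 to 0.881) in separate KO LADs, 0.188 per Mb in KO LADs that overlap a WT LAD and 0.996 per Mb in DNA in no LAD.

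**Figure D2:**
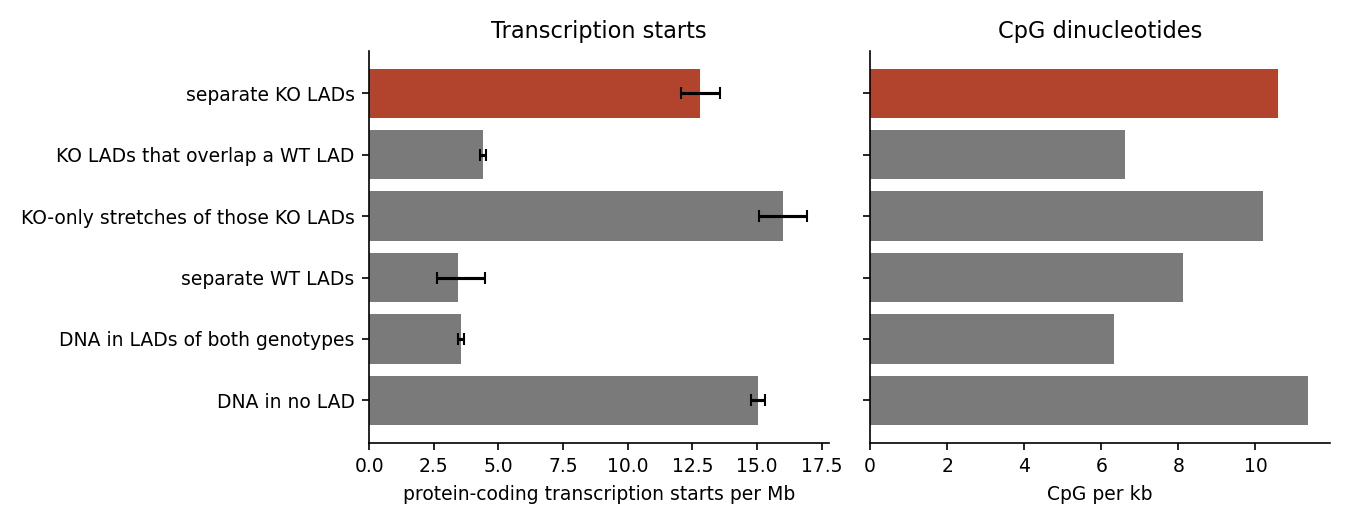
Protein-coding transcription starts per Mb (left, bars with 95% Poisson intervals of the count) and CpG dinucleotides per kb (right) in 6 classes of DNA on the 17 chromosomes. Separate KO LADs (red, 12.8 starts per Mb and 10.6 CpG per kb) lie below DNA in no LAD (15.04 and 11.4). They lie above separate WT LADs and DNA in LADs of both genotypes. The rule admits only DNA outside WT LADs, which sets part of the contrast with DNA in LADs of both genotypes.

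Separate KO LADs near WT LADs held fewer starts than those farther away, as did DNA in no LAD. Separate KO LADs under 10 kb from a WT LAD held 9.45 starts per Mb (7.31 to 12.02), those at 100 to 300 kb held 13.8 (12.3 to 15.5), those at 300 to 1000 kb held 15.4 (13.4 to 17.6), and those at 1 Mb or more held 14.7 (11.2 to 19.0). The median GC content went from 42.8% in the nearest group to 46.4% in the farthest, and the median length from 18.7 to 14.7 kb. DNA in no LAD at the same distances held 10.8, 14.8, 16.8 and 16.2 starts per Mb. In each of the 6 distance groups the separate KO LADs had fewer starts per Mb than DNA in no LAD, although the intervals of the 2 overlapped in each group.

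**Figure D3:**
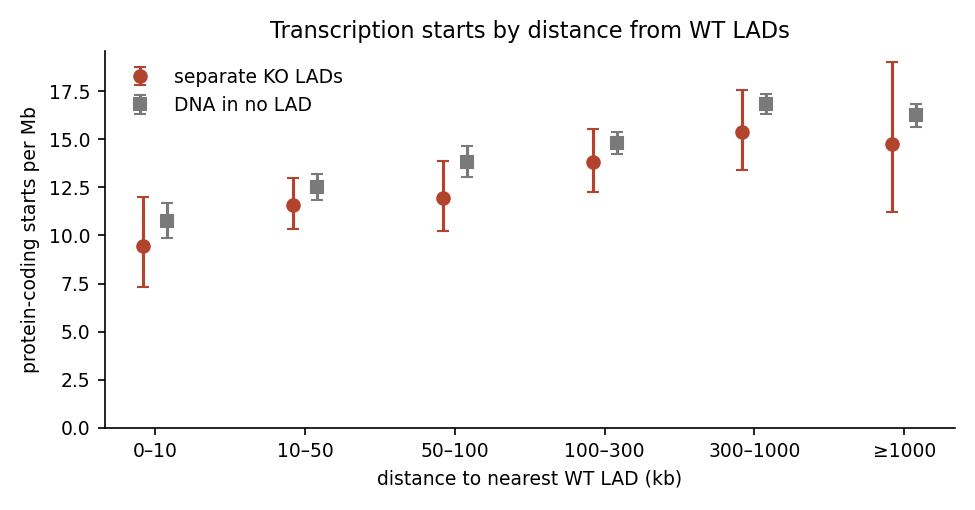
Protein-coding transcription starts per Mb (points, with 95% Poisson intervals of the count) by distance to the nearest WT LAD, for separate KO LADs (red) and DNA in no LAD (gray). Both are lowest under 10 kb (9.45 and 10.8 per Mb) and highest at 300 to 1000 kb (15.4 and 16.8 per Mb), with 14.7 and 16.2 per Mb at 1 Mb or more.

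Transcription starts were unevenly placed around the borders of separate KO LADs. The lowest density inside the border was 9.07 starts per Mb (7.61 to 10.7), at 2 to 4 kb in. Deeper inside, the bins from 10 to 20 kb in held 15.02 to 20.5 per Mb, as high as outside, and only the longer separate KO LADs reach that far. Outside, the density was 18.2 per Mb (16.1 to 20.5) at 2 to 4 kb and 18.6 per Mb (16.5 to 20.9) at 4 to 6 kb, and it fell back to 9.40 per Mb (7.92 to 11.1) at 12 to 14 kb. KO LADs that overlap a WT LAD also had fewer starts just inside the border than just outside, at a lower level. Their lowest density was 3.16 per Mb at 4 to 6 kb inside, against 7.49 per Mb at 4 to 6 kb outside. Their bins from 10 to 20 kb in held 4.44 to 5.35 per Mb, which is below that outside value. Of the 171 starts within 2 kb outside a separate KO LAD, 107 belonged to genes that run away from it and 64 (37.4%, Wilson interval 30.5 to 44.9) to genes that run into it.

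**Figure D4:**
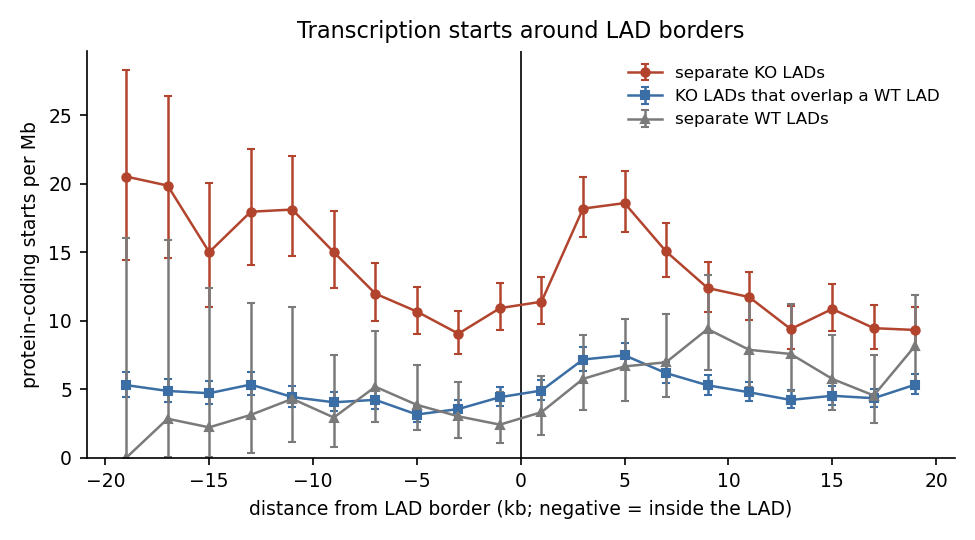
Protein-coding transcription starts per Mb in bins of 2 kb around LAD borders (kb; negative values lie inside the LAD, both borders combined), with 95% Poisson intervals of the count. For separate KO LADs (red) the density is lowest near the border, at 9.07 per Mb 2 to 4 kb inside, and reaches 18.6 per Mb at 4 to 6 kb outside before it falls. Outside bins also take in DNA of neighboring LADs. The bins 10 to 20 kb inside, which rest on the longer LADs only, are as high (15.02 to 20.5 per Mb).

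Individual separate KO LADs related to genes in 4 ways. At least 1 protein-coding transcription start lay in 921 of them (24.6%, Wilson interval 23.2 to 26.0). A further 1219 (32.5%) lay wholly inside a gene without its start, 350 (9.33%) covered part of a gene without a start, and 1260 (33.6%) touched no protein-coding gene. A whole protein-coding gene was held by 272 (7.25%). KO LADs that overlap a WT LAD held a start about as often (24.6%) although they were far longer. Among separate WT LADs, 5.70% (4.31 to 7.49) held a start. When a separate KO LAD lay inside a gene, its middle was placed on the gene cut into 5 equal parts from the start. Part 1 took 12.8% of cases, part 2 took 25.7%, part 3 took 25.1%, part 4 took 22.1% and part 5 took 14.3%. A region at least 10 kb long cannot have its middle at the very end of a gene that holds it, which lowers the shares of parts 1 and 5.

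Promoters in separate KO LADs were mostly CpG-rich. The rule admits only starts outside WT LADs, which sets part of the contrast with LADs of both genotypes below. The window from 250 bases before to 50 bases after each start was read from the mm9 genome, and a window with at least 15 CG dinucleotides was called CpG-rich. This held for 650 of the 1104 starts in separate KO LADs (58.9%, Wilson interval 55.9 to 61.7), 53.3% of the starts in no LAD, 9.78% of the starts in LADs of both genotypes (8.88 to 10.8) and 44.0% of all 19649 starts. Starts in the KO-only bases of KO LADs that overlap a WT LAD had a similar share, 55.85% (53.2 to 58.5). Among the 466 starts in WT LADs only, 12 (2.58%) were CpG-rich. Genes with a start in a separate KO LAD had a median length of 31.7 kb, against 16.7 kb for starts in no LAD and 5.17 kb for starts in LADs of both genotypes. The median was 32.6 kb for starts in the KO-only bases of KO LADs that overlap a WT LAD, so neither trait is particular to separate KO LADs. A GATC was present in 45.6% of the promoter windows in separate KO LADs and in 46.3% of all windows.

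Promoter windows of genes that start in separate KO LADs are shown to let CpG-rich and CpG-poor cases be compared, with each CG in capitals and the strand of the gene.
*Mllt3*, chr4:87679219-87679518, strand -: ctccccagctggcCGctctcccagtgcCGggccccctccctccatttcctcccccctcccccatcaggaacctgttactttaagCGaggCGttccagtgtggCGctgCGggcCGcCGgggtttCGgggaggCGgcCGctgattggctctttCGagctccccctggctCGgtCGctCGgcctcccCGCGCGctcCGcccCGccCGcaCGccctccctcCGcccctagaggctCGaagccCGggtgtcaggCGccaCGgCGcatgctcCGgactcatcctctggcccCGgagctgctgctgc
*Sc4mol*, chr8:67212540-67212839, strand -: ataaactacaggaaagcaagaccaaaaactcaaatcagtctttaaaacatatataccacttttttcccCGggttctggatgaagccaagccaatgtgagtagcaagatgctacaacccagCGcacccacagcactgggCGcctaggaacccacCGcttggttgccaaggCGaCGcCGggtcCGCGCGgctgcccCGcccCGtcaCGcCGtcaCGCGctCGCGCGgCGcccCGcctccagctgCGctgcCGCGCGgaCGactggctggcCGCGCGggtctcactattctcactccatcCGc
*Ccna2*, chr3:36471023-36471322, strand -: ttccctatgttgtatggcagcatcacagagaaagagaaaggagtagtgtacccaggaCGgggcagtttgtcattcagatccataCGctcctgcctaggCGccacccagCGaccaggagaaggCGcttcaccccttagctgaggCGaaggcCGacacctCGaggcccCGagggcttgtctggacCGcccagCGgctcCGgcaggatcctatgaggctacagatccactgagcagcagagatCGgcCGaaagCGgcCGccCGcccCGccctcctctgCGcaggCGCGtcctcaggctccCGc
*Msx2*, chr13:53568394-53568693, strand -: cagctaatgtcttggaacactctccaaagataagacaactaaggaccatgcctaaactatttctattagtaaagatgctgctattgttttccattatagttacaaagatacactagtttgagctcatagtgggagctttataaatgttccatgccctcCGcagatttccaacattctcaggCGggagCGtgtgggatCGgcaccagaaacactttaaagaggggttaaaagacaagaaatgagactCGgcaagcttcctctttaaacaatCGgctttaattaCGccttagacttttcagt
*Grb14*, chr2:64862995-64863294, strand -: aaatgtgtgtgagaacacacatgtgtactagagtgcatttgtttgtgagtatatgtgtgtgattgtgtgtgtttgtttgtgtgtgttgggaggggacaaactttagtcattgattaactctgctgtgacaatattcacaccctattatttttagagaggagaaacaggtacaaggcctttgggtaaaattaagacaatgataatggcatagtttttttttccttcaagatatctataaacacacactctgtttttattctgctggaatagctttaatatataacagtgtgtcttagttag
The *Mllt3* and *Sc4mol* windows each hold 30 CG, the *Ccna2* window 22, the *Msx2* window 7 and the *Grb14* window 0. The first 3 are CpG-rich by the threshold above, and the other pair are not. *Ccna2* holds 4 GATC, *Msx2* holds 1 and the others hold none.

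Of the 10 longest separate KO LADs, all but the one on chromosome 14 overlapped a protein-coding gene. The longest, chr4:87452628-87628433, spans 175.8 kb inside *Mllt3*, which encodes AF9, a subunit of the super elongation complex. A second one of 118.9 kb, chr4:87641947-87760845, holds the *Mllt3* start, so that separate KO LADs covered 80.9% of the gene and 5 of its 11 exons, while WT LADs touched 0.444% of its span. The next, chr13:53513554-53664925 (151.4 kb), holds the whole of *Msx2*, a homeobox transcription factor gene of bone and limb development. On chromosome 3, 141.9 kb hold 96.5% of *3110057O12Rik* and the whole of *Larp1b*, which encodes a La-related RNA-binding protein. On chromosome 2, 138.9 kb hold the start of *Kif5c*, a kinesin-1 heavy chain gene of neurons, and separate KO LADs covered 91.9% of its 155.5 kb. The 137.6 kb on chromosome 1 hold the starts of *Smap1* and *1110058L19Rik* and part of *Fam135a*. The 127.0 kb on chromosome 14 hold no protein-coding gene. On chromosome 17, 122.3 kb hold the whole of *Arhgef33* and 26.6% of *Sos1*, the guanine nucleotide exchange factor that links growth factor receptors to Ras. A separate KO LAD of 116.6 kb on chromosome 1 holds 4 starts, the most found in any and shared with 4 others, those of *Cdc73*, the mitochondrial glutaredoxin gene *Glrx2*, *Trove2* and *Uchl5*. Of these 10 longest, the one at *Sos1* lay farthest from a WT LAD, at 443.1 kb, and that at *Cdc73* nearest, at 3.81 kb.

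The separate KO LADs farthest from any WT LAD were short and GC-rich. The farthest, chr2:30314134-30339887, lay 5799 kb from the nearest WT LAD, was 25.7 kb long with 52.3% GC, and holds the whole of *Ier5l*, an immediate early response gene family member. The 10 farthest lay 3674 to 5799 kb from a WT LAD, on chromosomes 2, 4, 15 and 17, and measured 10.2 to 25.7 kb with 45.7 to 55.0% GC. Others among them lay in *Eif4g3*, a translation initiation factor gene, in *Uhrf1bp1* and at *Elfn2*, whose start one of them holds.

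Several long genes carried a series of separate KO LADs. *Lrba*, whose product keeps the immune checkpoint receptor CTLA4 from degradation, was overlapped by 8, which covered 30.8% of its 558.0 kb. The first of these holds the *Lrba* start, and the other 7 lie 32.5 to 456.2 kb downstream of it. *Cacna1c*, a voltage-gated calcium channel gene, was overlapped by 7 over 18.1% of 603.9 kb, and *Arfip1* by 7 over 6.83% of its annotated 1391 kb. *Sox6* and *Zfp423*, both transcription factor genes, carried 6 each, over 21.2% and 42.7% of their spans. WT LADs also touched each of these genes, over 11.6% of the span of *Lrba*, 11.02% of *Cacna1c*, 1.13% of *Arfip1*, 14.5% of *Sox6* and 3.76% of *Zfp423*. *Fgfr2*, a fibroblast growth factor receptor gene, also carried 6 over its annotated span of 3009 kb, and none of its 16 exons lay in one. WT LADs covered 31.7% of that span and KO LADs of any kind 23.5%.

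In all, 2338 of 19649 protein-coding genes on the 17 chromosomes overlapped a separate KO LAD by at least 1 base, which is 11.9%, and 1104 (5.62%) had their start in one. These shares are the background for the gene groups below. No WT LAD touched the span of 1976 of the 2338 genes. Separate KO LADs covered a median of 30.2% of a gene that they overlapped; 738 genes had at least 50% of their span in them, 321 lay wholly inside one and 406 had less than 10% inside. At least 1 exon was covered in 2069 genes. Long genes were overlapped more often. Of genes under 10 kb, 4.39% overlapped a separate KO LAD and 3.57% had their start in one, against 32.7% and 10.8% of genes of 100 to 300 kb. The median length was 50.1 kb for overlapped genes and 15.6 kb for all.

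Cholesterol synthesis, the pathway of which Tm7sf2 is an enzyme, had 4 of 16 genes that overlap a separate KO LAD (25%). The Wilson interval, 10.2 to 49.5, holds the background of 11.9%. The study had already named *Sc4mol* and *Cyp51* with a position from these same libraries. *Sc4mol*, the older symbol of the methylsterol monooxygenase gene *Msmo1*, lay wholly inside one of 33.2 kb, chr8:67195566-67228784, with all 6 exons and its start, 148.3 kb from the nearest WT LAD. *Idi1*, the isopentenyl diphosphate isomerase gene, was covered over 50.2% of its span but not at its start. *Cyp51*, the lanosterol demethylase gene, was covered by a separate KO LAD over 8.61% of its span and by KO LADs of any kind over 63.2%. *Sqle*, the squalene epoxidase gene, had its first 0.575 kb, start included, in a separate KO LAD that extends 15.1 kb upstream of it. The other 12 genes of the group did not overlap one. In sterol regulation and transport the count was 2 of 25 (8%), namely *Mylip*, the ubiquitin ligase of the LDL receptor, with its start inside, and the cholesterol exporter *Abca1*, with 26.7% of its span and 22 of 50 exons.

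Of the cell cycle genes, 12 of 53 (22.6%, Wilson interval 13.45 to 35.5) overlapped a separate KO LAD and 7 (13.2%) had their start in one. *Ccna2*, which encodes the cyclin of S phase and mitotic entry, lay wholly inside a separate KO LAD of 87.2 kb, with 8 of 8 exons. *Cdkn2b*, an inhibitor of the G1 cyclin-dependent kinases, and *Mcm3*, a subunit of the replicative helicase, also lay wholly inside one. *Foxm1*, a transcription factor of mitotic genes, was covered over 94.2% of its span with its start. *Mki67*, the gene of the proliferation marker Ki-67, had 61.3% of its span and 8 of 14 exons in one, while its start lay 6.52 kb outside. No WT LAD touched these 5 genes. The group has members that drive division and members that hold it back. Kinesin genes, many of which serve the mitotic spindle or transport along microtubules, had 8 of 34 (23.5%), with a median gene length of 47.4 kb. *Kif15*, a spindle kinesin gene, was covered over 45.3% of its span with its start, and *Kif24* and *Kif21a* over 21.0% and 26.0% without it.

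Insulin signaling had 5 of 31 genes (16.1%, Wilson interval 7.09 to 32.6). That interval holds the background of 11.9%. So do those of nuclear receptors (5.46 to 26.1), circadian clock (4.98 to 34.6) and NF-kB (5.24 to 36.0) genes. The insulin signaling genes had a median length of 70.8 kb, and 19.4% of all genes of 30 to 100 kb overlapped a separate KO LAD. *Irs1*, the insulin receptor substrate gene, had 24.3% of its span in a separate KO LAD of 14.2 kb that begins 8.62 kb downstream of its start and holds neither exon. *Sos1* is described above. *Grb14*, an adaptor that inhibits the insulin receptor, had 11.3% of its span inside, with its start. The receptor gene *Igf1r* was overlapped by 3 separate KO LADs over 9.39% of its span. No separate KO LAD overlapped *Irs2*. Nuclear receptors had 5 of 40 (12.5%) and none with the start inside, and examples were *Nr3c2* (35.2% of the span), *Esr2* (20.8%) and *Esrrb* (12.2%). The circadian clock group had 3 of 21 (14.3%), and *Rora*, covered over 8.10% of its span, is also in the nuclear receptor group. *Npas2*, a clock transcription factor gene, had its start inside. The NF-kB group had 3 of 20 (15%): *Cyld* over 63.7% of its span, *Ikbkb*, the IKK-beta kinase gene, over 41.1% with its start, and *Map3k7* over 17.7%.

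The Wilson interval was 2.65 to 28.9 for NE protein genes and also for liver transcription factor genes. For TGF-beta family receptor and Smad genes it was 0.846 to 22.7. Each interval holds the background of 11.9%, and small counts of genes in these groups were overlapped by a separate KO LAD. Of 21 NE protein genes, 2 (9.52%) were, *Lmna* over 27.3% of its span with 11 of 12 exons, and *Lmnb1*, the gene of the lamin fused to Dam here, over 20.0% with its start. Of 21 TGF-beta family receptor and Smad genes, only *Smad2* was (4.76%), with its start inside. Of 21 liver transcription factor genes, *Nfib* and *Nfia* were (9.52%), each over less than 3% of the span.

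None of 16 hepatocyte marker genes overlapped a separate KO LAD (Wilson interval up to 19.4%), and 1 of the 16 was touched by a WT LAD. Kupffer cell (7 genes), stellate cell (8) and endothelial cell (8) markers had none either, with Wilson intervals up to 35.4%, 32.4% and 32.4%. Among 7 cholangiocyte markers, *Epcam*, which encodes an epithelial adhesion protein, lay wholly inside a separate KO LAD of 24.8 kb at 472.1 kb from a WT LAD.

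The large tandem families that lie in WT LADs had low counts, which the rule itself sets in large part, since separate KO LADs share no base with a WT LAD. Olfactory receptor genes overlapped a separate KO LAD in 4 of 973 cases (0.411%), and 913 of the 973 were touched by a WT LAD. For vomeronasal receptor genes the count was 2 of 313 (0.639%), with 297 touched by a WT LAD. For protocadherin genes it was 0 of 33 (Wilson interval up to 10.4%), with 31 touched by a WT LAD. Ribosomal protein genes, by symbols that begin with Rpl or Rps, were overlapped in 4 of 127 cases (3.15%), of which *Rpl12-ps1* and *Rps13-ps1* are named as pseudogene copies and *Rps6ka2* and *Rps6ka5* encode kinases. Their median length was 2.52 kb. Solute carrier genes (49 of 303, 16.2%), Zfp genes (50 of 354, 14.1%), histone genes (8 of 67, 11.9%), keratin genes (6 of 51, 11.8%), interleukin and interleukin receptor genes (8 of 75, 10.7%), proteasome subunit genes (4 of 41, 9.76%), cytochrome P450 genes (7 of 79, 8.86%), Hox genes (3 of 40, 7.5%) and mitochondrial ribosomal protein genes (5 of 70, 7.14%) lay within about 5 percentage points of the background. *Slc25a4*, the mitochondrial ADP/ATP carrier gene, and *Cyp1b1* lay wholly inside one. *Hoxd12* lay wholly inside one, which also took in parts of *Hoxd11* and *Hoxd13*.

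**Figure D5:**
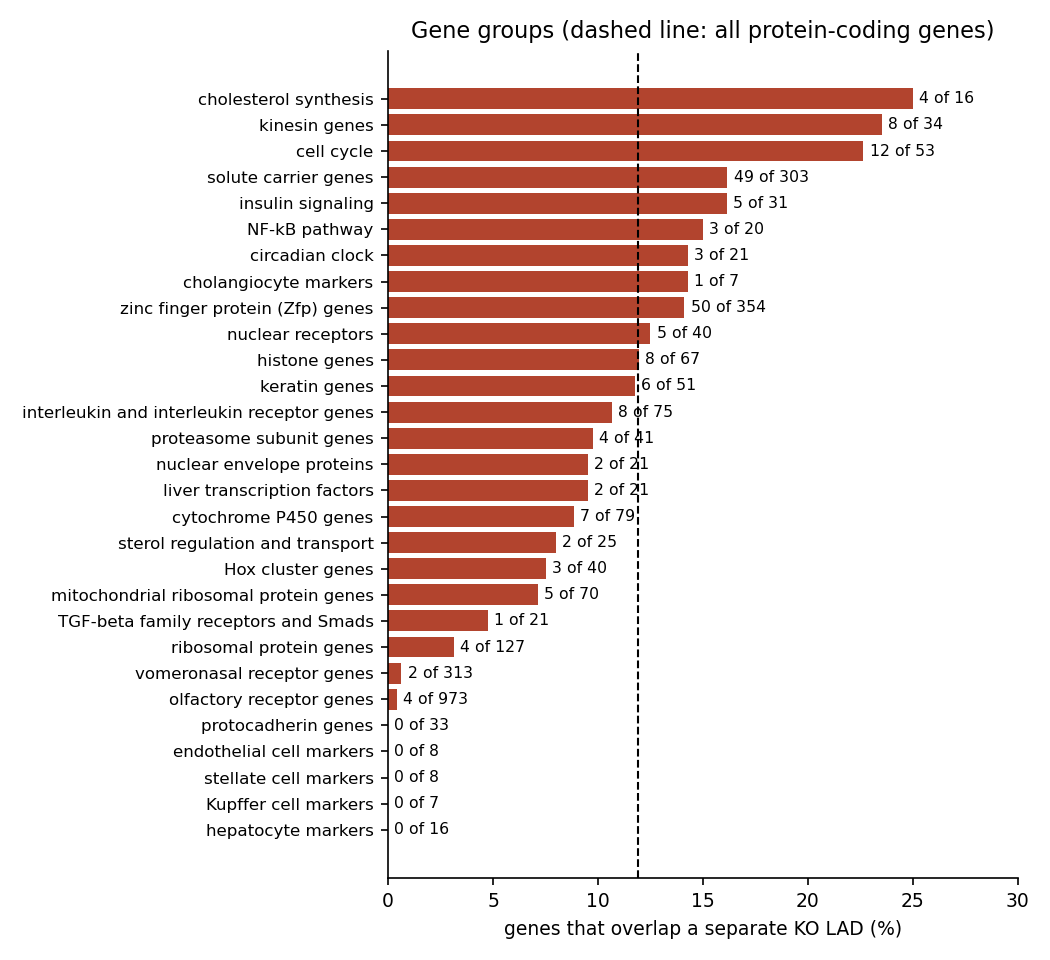
Share of the genes of each group that overlap a separate KO LAD by at least 1 base (bars, %), with the count beside each bar; the dashed line is the share of all protein-coding genes, 11.9%. Cholesterol synthesis, kinesin and cell cycle genes have the highest shares, at 25%, 23.5% and 22.6%, and olfactory receptor genes are at 0.411%.

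The study lists genes that moved to the periphery in the KO with lower expression. *Gm16551* of that list was located on chromosome 9 but was not measured here. Of the 12 other listed genes on the 17 chromosomes, 6 overlapped a separate KO LAD (50%), but the list was selected on these same libraries and is no independent evidence. These were *Mki67*, *Abca1*, *Tmem56* (2 separate KO LADs over 28.0% of its span), *Lifr*, the leukemia inhibitory factor receptor gene (20.9%), *Clpx*, the gene of the unfoldase of a mitochondrial protease (19.0%, with its start), and *Fndc3b* (2 over 5.41%). The separate KO LAD at *Clpx* lay 2752 kb from any WT LAD. Among the others, *Apcs*, *Hmmr*, *Glrx*, *Tmem64* and *Mal2* lay 100%, 69.4%, 67.7%, 45.5% and 6.37% in KO LADs that overlap a WT LAD, with no WT LAD on the gene itself. *Acvr1*, the remaining one, was covered over 20.4% by WT LADs and over 34.3% by KO LADs. Of 13 further genes that the study names with a position, 4 overlapped a separate KO LAD, namely *Sc4mol*, *Irs1*, *Cyp51* and *Ahr*, the aryl hydrocarbon receptor gene. *Ahr* was covered over 53.4% of its span with 3 of 11 exons, and its start lay 2.67 kb outside.

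Of the 1373 microRNA genes annotated on the 17 chromosomes, 43 lay in a separate KO LAD, and most of the 43 carried clone names. That is 0.498 per Mb (0.360 to 0.671), against 0.484 in KO LADs that overlap a WT LAD and 0.830 in DNA in no LAD. The 5 that matched RefSeq (GRCm38.p6) by symbol were *Mir574*, *Mir34b*, *Mir34c*, *Mir26a-1* and *Mir682*. The mature sequences that RefSeq gives for the Mir34 and Mir26 genes are shown because both families repress cell cycle genes, with the seed (bases 2 to 8) in capitals.
mmu-miR-34b-5p: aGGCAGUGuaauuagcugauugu
mmu-miR-34b-3p: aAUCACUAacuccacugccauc
mmu-miR-34c-3p: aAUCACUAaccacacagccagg
mmu-miR-26a-5p: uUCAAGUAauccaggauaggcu
mmu-miR-26a-1-3p: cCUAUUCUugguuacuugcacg
The -3p strands of miR-34b and miR-34c share the seed AUCACUA. Their genes, chr9:50911667-50911750 and chr9:50911139-50911215 on the minus strand of mm9, lie next to each other. *Mir30b* and *Mir30d* on chromosome 15 also lay in separate KO LADs.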

How the data were processed

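The authors mapped the reads to mm9 (BWA is named in the submitters' processing notes), took the ratio of Dam-LaminB1 to Dam only and segmented it into LADs for each genotype with the CBS algorithm. The deposited LAD lists and KO-only regions hold positions in bases and no other value. They were read as half-open intervals and are printed 1-based. All 3750 separate KO LADs are whole regions of the deposited KO-only list, and every interval fitted the chromosome lengths of NCBIM37 (mm9).

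Genes, 19649 protein-coding ones, came from the GENCODE annotation of NCBIM37, with the exons of the coding transcript with the most exonic bases. Python 3.11.15, numpy 2.4.6, scipy 1.17.1 and matplotlib 3.10.9 were used, and simulated lists (50 pairs, 2710 checks) gave 0 errors. The members and the gene lists were chosen with earlier results of these data known. Genes that overlap a separate KO LAD were named if the study gives them a position, if they lay at the 10 longest or 10 farthest separate KO LADs, carried the most (10 genes), lay in the 3 runs with the most separate KO LADs (ties by covered bases), or led a list (up to 4 each). *Irs2*, *Apcs*, *Hmmr*, *Glrx*, *Tmem64* and *Mal2* overlap no separate KO LAD and were added after their values were seen. By symbol, 3 listed genes were not located. Alternatives were other minimum lengths, distances, joins, chromosomes and gene overlaps. The DamID profiles are not analysed here, and some genes are not reported here.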

Additional observations from a re-analysis of the deposited data

How the results depend on the processing

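With 1 library pair per genotype, no replicate could be left out. No paired analysis was possible because each group holds a single library. Of 48 values under another setting, 29 stayed within the 95% interval of a share or density or within a factor of 1.5 for numbers, sizes and medians, and 19 moved. Including chromosomes 10, 19, X and Y moved none of the 9 results, and a distance of more than 10 kb moved only the share with another within 100 kb, from 64.7% to 62.9%. With LADs of at least 20 kb in both lists, there were 2125 separate KO LADs with a median of 30.4 kb, 54.8% had another within 100 kb, 34.5% held a start, and starts were at 11.9 per Mb. With a distance of more than 50 kb, there were 2404 over 53.1 Mb, a median of 207.0 kb from a WT LAD, 60.3% had another within 100 kb, and starts were at 13.8 per Mb. With LADs joined across gaps of up to 50 kb first, there were 1623, a median of 236.8 kb from a WT LAD, 30.6% had another within 100 kb, 35.2% held a start at 13.6 starts per Mb, and 1477 genes overlapped one. Asking for at least 50% of a gene's span left 738 genes, and asking for the start left 1104. Starts per Mb stayed between 11.9 and 13.8 in every setting tried, and the median GC content between 43.3 and 44.5%. The depth behind single regions is unknown, and the part of the lower KO depth in the number of short separate KO LADs was not tested.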
